A study of Homo sapiens with 2 samples.

Results

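Genes of the proteasome were compared between SUDHL6 and HT, both established human lines of diffuse large B cell lymphoma. The members were taken by symbol: a probe set of the array had to name exactly 1 gene, with a symbol of PSMA, PSMB, PSMC, PSMD, PSME, PSMF or PSMG and a number. This gave 36 genes of the 14232 genes with 1 value, each through 1 probe set of its own. RefSeq holds 48 such symbols. Of the other 12, PSMB9, PSMD14, PSMG2 and PSMG4 were named only by probe sets shared with other genes, and PSMA6, PSMA8, PSMB11, PSMC1, PSMC5, PSMC6, PSMD7 and PSMD13 were not analysed here. The lines were measured at baseline, with no treatment, in the same serum-containing RPMI medium, for a study of an inhibitor of the Polycomb complex PRC2. Each line was hybridised once, to 1 Affymetrix exon array.

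Values are log2 expression per probe set, and every difference below is the log2 value in SUDHL6 minus that in HT, so a negative difference means a lower value in SUDHL6. With 1 array per line there was no spread between replicates, no difference could be tested and no p-value is given. The number of arrays limits the precision of every value. A gene was counted as different at a log2 difference of at least 1 (2-fold) provided that its brighter value was at or above a dim level set for each line, the 95th percentile of 225 olfactory receptor genes (3.81 in SUDHL6 and 4.11 in HT). Where the lower value lay under that level, the fold was taken against the dim level itself and carries the words "at least". The levels of different genes were not ranked, because probe sets differ in brightness. B cell identity was checked on a marker list: all 6 measured B cell genes, CD79A, CD79B, PAX5, CD22, CD74 and MS4A1, lay above the dim level in both lines, with MS4A1 6.01-fold higher in SUDHL6. Of 6 measured germinal centre genes 5 lay above it in both lines, with SERPINA9 20.8-fold higher in HT and GCSAM 3.27-fold higher in SUDHL6. Of 7 T cell markers, CD8A reached the dim level in both lines and CD5 in SUDHL6 only. CD3D, CD3E, CD3G, CD4 and CD2 lay below it on both arrays. In at least 1 line, 2 of 5 measured myeloid markers and 3 of 5 NK cell markers reached it. CD68 and NKG7 did so in both lines.

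The proteasome is the barrel-shaped protease that degrades ubiquitin-tagged proteins. Its 20S core has alpha rings, which gate the entrance, around beta rings, which hold the catalytic subunits PSMB5, PSMB6 and PSMB7. In lymphoid cells and after interferon exposure these can be replaced by PSMB8, PSMB9 and PSMB10 to form the immunoproteasome, which favours peptides suited to MHC class I molecules. The 19S regulator, made of ATPases (PSMC) and other subunits (PSMD), receives and unfolds substrates, and PSME proteins are alternative activators. Dedicated chaperones assemble the particle. B cell malignancies of the plasma cell lineage are treated with drugs that block the catalytic beta subunits.

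Most proteasome genes had a modestly lower value in SUDHL6. Of the 36 members, 28 (77.8%) were lower in SUDHL6, 7 were higher, and PSMA2 held the same value on both arrays, as did 681 probe sets of the array. Their median difference was -0.52, a 1.44-fold higher level in HT, with quartiles at -0.79 and -0.21. Over the 9405 genes with at least their brighter value above dim, the median was -0.05, the quartiles were -0.38 and 0.22, and 53.5% were lower in SUDHL6. Over all 14232 genes the median was -0.04 and 52.9% were lower. Every one of the 36 members passed the dim level on at least 1 array, and only PSMD4 in HT lay under it. In a bulk extract, a lower level per cell and fewer cells expressing the gene cannot be told apart. The plot of member levels shows both lines side by side for each gene.

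**Figure D1:**
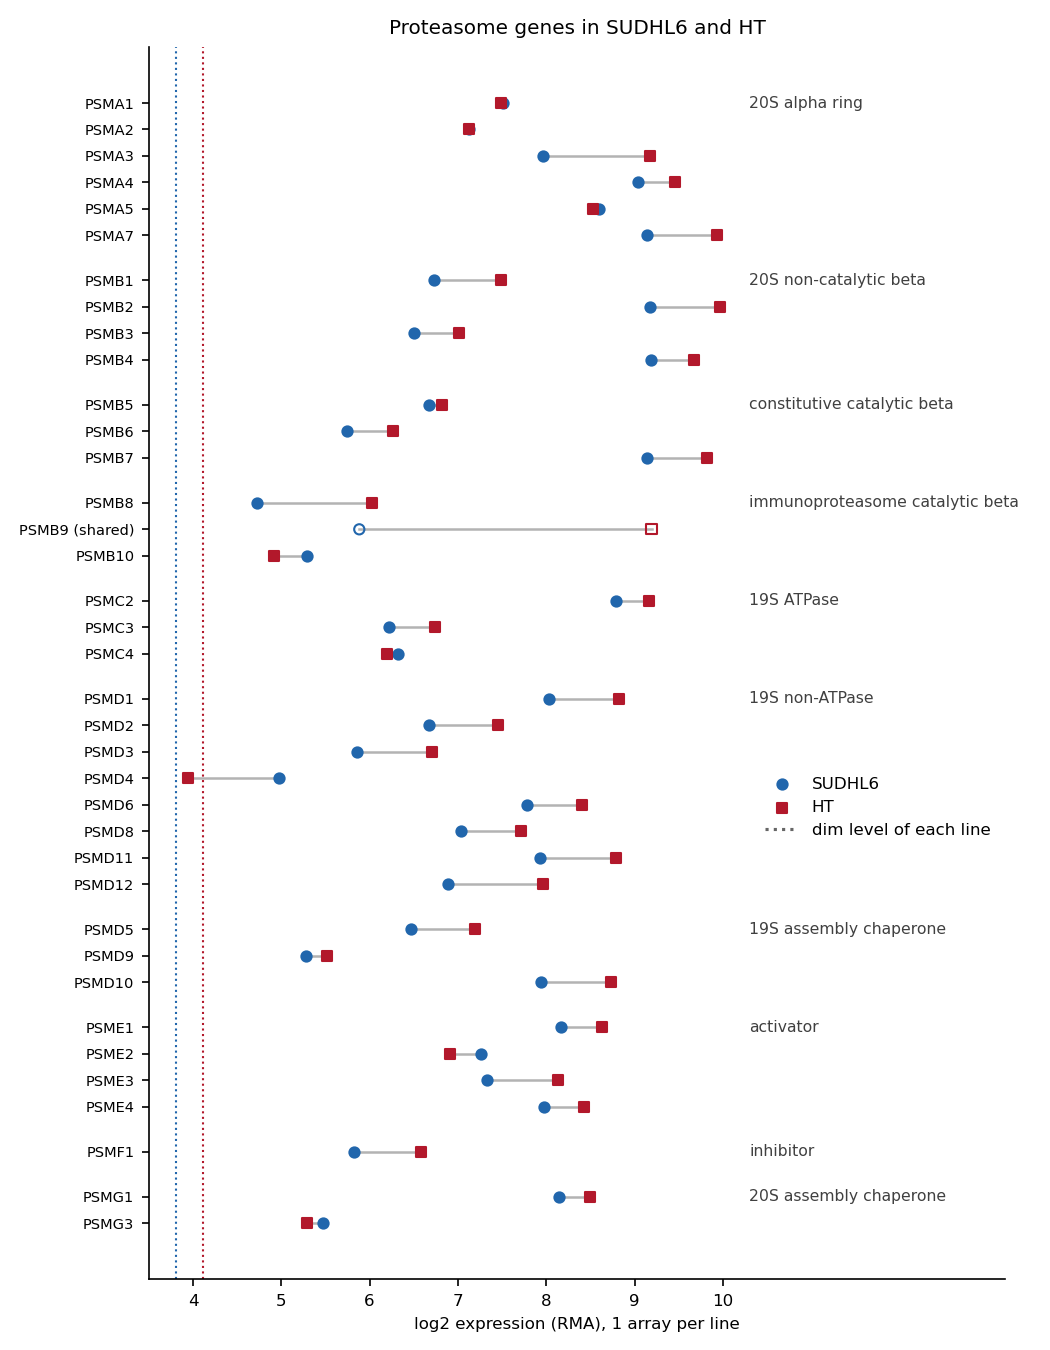
Log2 expression of the 36 proteasome genes in SUDHL6 (circles) and HT (squares), 1 array each, grouped by role; open symbols are the probe set that PSMB9 shares with PSMB8-AS1 and dotted lines are the dim levels, 3.81 and 4.11. The HT symbol lies to the right in 28 of the 36 genes, and the longest line belongs to the shared PSMB9 probe set.

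The shift was broad and small rather than carried by single large differences. A difference of at least 1 was reached by 4 of the 36 members, 3 higher in HT (PSMB8, PSMA3 and PSMD12) and 1 in SUDHL6 (PSMD4), or 11.1%. Among genes above the dim level the same rule counted 12.3%, with 6.99% higher in HT and 5.3% in SUDHL6, so the members' count is near the background. Over all genes with a value these shares were 8.12%, 4.62% and 3.5%. The 225 olfactory receptor genes, which B cells are not known to use, give a scale for dim probe sets: the central 95% of their differences ran from -1.03 to 1.26. At 1.5-fold, 17 members (47.2%) were higher in HT, against 16.1% of genes above the dim level, and 1 member (2.78%) was higher in SUDHL6, against 11.2%. Over all genes with a value, 10.7% were at least 1.5-fold higher in HT and 7.43% in SUDHL6. These shares are not matched for level: of the 9405 genes above dim, 5156 had a mean log2 level of 4 to 6, against 5 of the 36 members. The 17 hold 14 members whose differences lay between -0.9 and -0.6, from the alpha ring, the beta ring, the 19S regulator, its chaperones, an activator and the inhibitor.

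Genes with higher values leaned towards HT in general, and the proteasome genes lay below that trend in 4 of 5 level ranges. Among all genes above the dim level with a mean log2 level of 8 to 9, the median was -0.21 and 64.9% were lower in SUDHL6. The 10 proteasome genes in that range had a median of -0.55, and 9 of them were lower. In the range from 9 to 10 the medians were -0.15 over 268 genes and -0.68 over 5 members, in the range from 7 to 8 -0.17 and -0.73 over 8 members, and in the range from 6 to 7 -0.16 and -0.52 over 8 members. The exception was the range from 4 to 6, where 5 members had a median of 0.19 against -0.02 for all genes, and 2 of the 5 were lower in SUDHL6. A loess correction, which removes such a trend with level, moved the median of all genes to 0.00 and that of the members to -0.42, with 28 still lower in SUDHL6 and 15 at least 1.5-fold higher in HT. After it, 13.5% of genes above the dim level were at least 1.5-fold higher in HT.

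**Figure D2:**
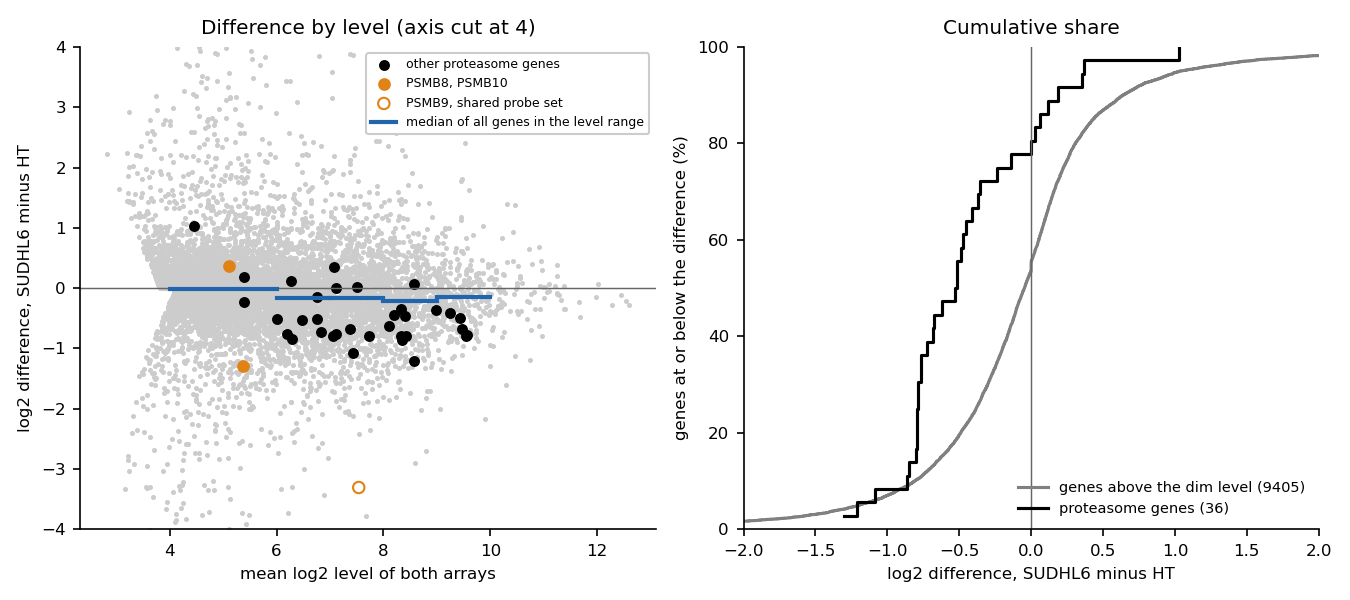
Left, log2 difference (SUDHL6 minus HT) against the mean log2 level for the 9405 genes above the dim level (grey), the proteasome genes (black and orange) and the median of genes above the dim level in 5 level ranges (blue bars); differences beyond 4 are not drawn. Right, the cumulative share of genes at or below each difference: the curve of the 36 members lies left of that of the 9405 genes over most of the range, with medians of -0.52 and -0.05. No member lies below -1.30, where 4.2% of the 9405 genes do.

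The alpha ring, the outer ring of the core, held both the largest shift among constitutive subunits and genes with nearly equal values. PSMA3 stood at 7.96 in SUDHL6 and 9.17 in HT. It was thus 2.31-fold higher in HT, and the difference was -1.21. Of its 10 nearest genes with a value, ACTR10 (-0.84), EXOC5 (-0.63) and KIAA0586 (-0.58) were also lower in SUDHL6, and the median of the 10 was -0.03. PSMA7 stood at 9.14 and 9.93, 1.73-fold higher in HT, and PSMA4 at 9.04 and 9.45, 1.33-fold higher. The other 3 measured alpha genes hardly differed: PSMA1 stood at 7.51 and 7.49, PSMA5 at 8.60 and 8.53, and PSMA2 at 7.12 in both lines. A second probe set that PSMA2 shares with C7orf25 stood at 5.74 in SUDHL6 and 5.16 in HT, opposite in direction to most of the family. The median of the 6 alpha genes was -0.20, and 5 of the 6 differed by less than 1.

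All 7 measured constitutive beta subunits had lower values in SUDHL6, none by as much as 1. Of the structural subunits, which carry no active site, PSMB1 stood at 6.72 in SUDHL6 and 7.49 in HT. PSMB2 stood at 9.18 and 9.97, PSMB3 at 6.50 and 7.01, and PSMB4 at 9.18 and 9.67. These 4 differences lay close together, between -0.79 and -0.49, with a median of -0.64. Of the catalytic subunits, PSMB5, which provides the chymotrypsin-like activity and is the main target of proteasome inhibitor drugs, stood at 6.68 and 6.82, a difference of -0.14. PSMB6, with caspase-like activity, stood at 5.75 and 6.26, 1.43-fold higher in HT. PSMB7, with trypsin-like activity, stood at 9.14 and 9.82, 1.60-fold higher in HT. PSMB5 therefore differed least of the 7, and after quantile normalization its difference was -0.01.

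The immunoproteasome subunits with a probe set of their own, PSMB8 and PSMB10, differed in opposite directions on these arrays, PSMB10 by less than 1. PSMB8, which takes the place of PSMB5, had values of 4.73 in SUDHL6 and 6.03 in HT. It was 2.46-fold higher in HT, the lowest difference of the 36 members (-1.30), and 4.2% of genes above the dim level had a lower one. PSMB10, which takes the place of PSMB7, had values of 5.29 and 4.92 and was 1.29-fold higher in SUDHL6, a difference of 0.37 in the opposite direction to PSMB8. PSMB9, which takes the place of PSMB6, had no probe set of its own. The probe set it shares with PSMB8-AS1, a non-coding RNA that starts beside PSMB8, stood at 5.88 in SUDHL6 and 9.19 in HT, 9.92-fold higher in HT (-3.31). That value cannot be assigned to PSMB9 or to PSMB8-AS1 alone, and it is not counted among the 36.

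Set against the constitutive subunit that each replaces, the balance differed by subunit. The ratio of PSMB8 to PSMB5 was 2.23-fold higher in HT, since their differences lay -1.16 apart on the log2 scale. For the shared PSMB9 probe set against PSMB6 the ratio was 6.95-fold higher in HT. For PSMB10 against PSMB7 it was 2.07-fold higher in SUDHL6, a gap of 1.05 in the other direction. These ratios compare the same probe sets between the lines and do not say which subunit was more abundant in either line.

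**Figure D3:**
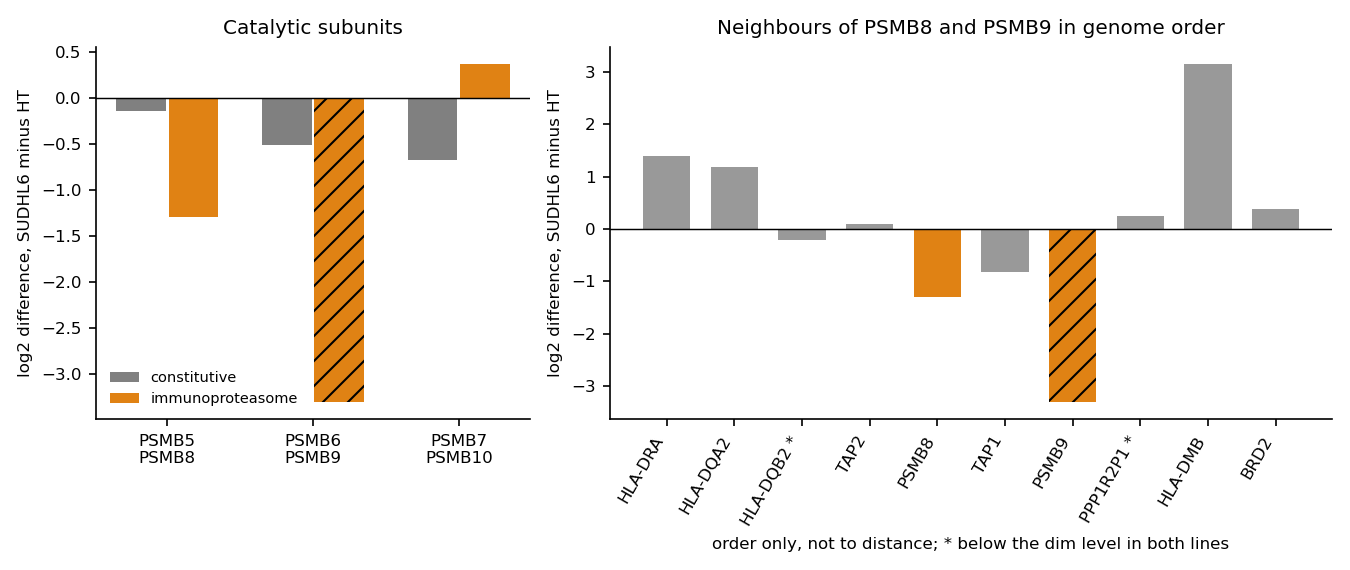
Log2 difference (SUDHL6 minus HT), 1 array per line. Left, each constitutive catalytic subunit (grey) beside its immunoproteasome counterpart (orange; hatched, the probe set PSMB9 shares with PSMB8-AS1): PSMB8 (-1.30) and PSMB9 (-3.31) lie below 0 and PSMB10 (0.37) above. Right, genes with a value from HLA-DRA to BRD2 on chromosome 6 in genome order, not to distance, where HLA-DRA, HLA-DQA2 and HLA-DMB point the other way from PSMB8, TAP1 and PSMB9.

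PSMB8 and PSMB9 lie in the class II region of the MHC on chromosome 6, interleaved with the genes of the TAP transporter, which carries proteasome products into the endoplasmic reticulum. TAP1, between them, stood at 5.15 in SUDHL6 and 5.98 in HT, 1.77-fold higher in HT. TAP2, on the other side of PSMB8, stood at 5.40 and 5.31, a difference of 0.10. The class II genes on either side ran the other way: HLA-DMB, the first expressed gene with a value beyond PSMB9, was 8.88-fold higher in SUDHL6, HLA-DRA 2.61-fold and HLA-DQA2 2.28-fold, and BRD2 differed by 0.38. HLA-DOB and HLA-DMA had no value of their own. The median difference of the 10 nearest genes with a value around PSMB8 was 0.42, so PSMB8, itself at -1.30, lay at -1.72 relative to its neighbourhood. That median includes HLA-DRA, HLA-DQA2 and HLA-DMB, and also HLA-DQB2 and PPP1R2P1, which were dim on both arrays. PSMB10, on chromosome 16, lay 0.52 above its own neighbours, whose median was -0.15.

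The starts of PSMB9 and TAP1 face away from each other, 488 bases apart, in RefSeq (assembly GRCh38.p14). The 250 bases before the start of PSMB9 are shown because its probe set had the largest difference of the family. They lie in this gap and overlap no RefSeq gene. Capitals mark the only match there to 3 motifs that were searched in promoter windows on both strands: GAAANNGAAA, the core of interferon-stimulated response elements; TTCNNNGAA, the gamma-activated sequence of interferon-responsive promoters; and TGACNNNGC, the core of the antioxidant response element, to which NFE2L1, a regulator of proteasome genes, also binds.
PSMB9 (chr6:32853942-32854191, plus strand): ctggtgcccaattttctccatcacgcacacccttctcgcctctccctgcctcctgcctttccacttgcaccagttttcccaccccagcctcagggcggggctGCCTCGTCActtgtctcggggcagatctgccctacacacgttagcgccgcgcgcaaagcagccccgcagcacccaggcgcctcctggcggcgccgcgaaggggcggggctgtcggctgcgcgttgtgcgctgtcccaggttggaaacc

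The interferon response core was found in the windows of PSMB8, PSMB10, PSME1 and PSME2, the 4 measured members known to be induced by interferon, as well as in those of TAP1 and TAP2. Counted from the start as base 1, the motif began at base -28 in PSME2, -21 in PSMB10, -4 in PSMB8 and 6 in PSME1. The 30 bases around each match are shown to compare genes that share the motif but differed in opposite directions, with 1 match each in capitals and every sequence read along its gene's strand. TAP1 holds another match, from base -134, which overlaps the one in capitals and is left in lower case outside it. Both TAP1 matches lie in the 488-base gap between the TAP1 and PSMB9 starts, outside the 250 bases shown for PSMB9.
PSMB8 (chr6:32844032-32844061, minus strand): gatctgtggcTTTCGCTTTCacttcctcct
PSMB10 (chr16:67936852-67936881, minus strand): gggtaaaggcGAAAGCGAAAgcaggaagta
PSME1 (chr14:24136189-24136218, plus strand): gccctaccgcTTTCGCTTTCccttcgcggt
PSME2 (chr14:24146619-24146648, minus strand): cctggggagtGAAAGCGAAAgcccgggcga
TAP1 (chr6:32853813-32853842, minus strand): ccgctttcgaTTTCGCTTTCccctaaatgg
TAP2 (chr6:32838778-32838807, minus strand): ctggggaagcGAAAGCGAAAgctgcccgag

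Of these genes PSMB8 (-1.30), TAP1 (-0.83) and PSME1 (-0.47) had lower values in SUDHL6. Higher values there were those of PSMB10 (0.37), PSME2 (0.36) and TAP2 (0.095), all small differences. PSMA4 and PSMB4 also held a match. RefSeq windows, 300 bases from 250 before to 50 after a start, were found for 30 of the 36 members (36 windows). Of these windows 16.7% held the interferon response core, against 3.57% of all 35116 windows. The gamma-activated sequence was in 19.4% against 7.66%, in the windows of PSMB8, PSMB5, PSMA2, PSMC4, PSMD2, PSMD3 and PSME3. The antioxidant core was in 33.3% against 13.3%. The 2 cores GAAANNGAAA and TGACNNNGC were both found in windows of PSME1, PSME2 and PSMA4. A match is only a run of letters and was not tied to binding by any measurement here.

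Upstream sequence is also given for PSMA3 and PSMD12, the constitutive subunits more than 2-fold higher in HT. Capitals again mark matches to the 3 motifs. PSMA3 held none in these 250 bases, and PSMD12 held the antioxidant core, whose first base is at -165.
PSMA3 (chr14:58244593-58244842, plus strand): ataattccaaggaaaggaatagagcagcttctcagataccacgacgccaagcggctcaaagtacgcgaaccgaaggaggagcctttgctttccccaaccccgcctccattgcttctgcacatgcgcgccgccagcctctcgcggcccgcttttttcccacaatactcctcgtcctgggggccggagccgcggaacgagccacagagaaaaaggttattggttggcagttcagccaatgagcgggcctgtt
PSMD12 (chr17:67366578-67366827, minus strand): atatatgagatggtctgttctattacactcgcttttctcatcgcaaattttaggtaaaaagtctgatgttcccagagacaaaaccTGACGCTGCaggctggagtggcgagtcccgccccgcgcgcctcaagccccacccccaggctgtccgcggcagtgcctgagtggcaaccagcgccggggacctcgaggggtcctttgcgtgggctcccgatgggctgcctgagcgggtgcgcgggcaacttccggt

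Of the 8 non-ATPase subunits of the 19S regulator with a value, 7 were lower in SUDHL6. These 7 lay between -1.08 and -0.62, and the median of the 8 was -0.79. PSMD12, a scaffold subunit of the lid, stood at 6.88 in SUDHL6 and 7.97 in HT, 2.12-fold higher in HT (-1.08). The difference was -0.96 after quantile normalization and -0.95 after loess, so it was no longer counted there. Among its neighbours PITPNC1 (-1.96) and BPTF (-0.85) were also lower in SUDHL6 and PRKCA (1.19) was higher, and the median of 10 was 0.00. PSMD11, a lid subunit that links the regulator to the alpha ring, stood at 7.92 and 8.79, 1.82-fold higher in HT. PSMD3 stood at 5.86 and 6.71, PSMD8 at 7.03 and 7.72, and PSMD6 at 7.79 and 8.41. The base scaffolds PSMD1 and PSMD2, which dock ubiquitin receptors and shuttle factors, stood at 8.03 and 8.83 and at 6.67 and 7.46. Each of the 7 was thus at least 1.54-fold higher in HT. The probe set that the deubiquitinase gene PSMD14 shares with MXRA7 stood at 8.91 and 9.42, 1.43-fold higher in HT.

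PSMD4, a ubiquitin receptor of the regulator, was the exception. It stood at 4.97 in SUDHL6 and 3.94 in HT, where the value lay below the dim level, and was at least 1.81-fold higher in SUDHL6. Once HT was set to its dim level, the difference no longer reached 1. RefSeq names 1 numbered pseudogene of PSMD4, and PIPSL is a further copy that fuses PIP5K1A and PSMD4 sequence. The probe set naming PIPSL, PIP5K1A and PSMD4 was under the dim level on both arrays, at 1.85 and 2.45. PSMB4, a near neighbour of PSMD4 on chromosome 1, had a difference of -0.49, whereas LYSMD1, also near, had one of 1.01, with HT again below dim. The value of PSMD4 is therefore uncertain.

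The 3 measured 19S ATPases, which unfold substrates and open the core, differed less. PSMC2 stood at 8.79 in SUDHL6 and 9.16 in HT, and PSMC3 at 6.22 and 6.75, 1.29-fold and 1.44-fold higher in HT. PSMC4 stood at 6.32 and 6.20, a difference of 0.12 in the other direction. The 3 chaperones of 19S assembly were all lower in SUDHL6: PSMD10 (gankyrin) stood at 7.94 and 8.73, PSMD5 at 6.47 and 7.19, and PSMD9 at 5.28 and 5.51. The 10 nearest neighbours of PSMD5 on chromosome 9 had a median of -0.60, close to the -0.73 of PSMD5 itself.

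The activators also differed in both directions. PSME1 and PSME2 form together the interferon-inducible PA28 ring, and lie near each other on chromosome 14. PSME1 stood at 8.16 in SUDHL6 and 8.63 in HT, 1.39-fold higher in HT. PSME2 stood at 7.26 and 6.90, 1.28-fold higher in SUDHL6, but RefSeq lists 6 numbered pseudogenes of it, the most of any member. PSME3, the nuclear relative that forms a ring of its own, stood at 7.33 and 8.13, 1.73-fold higher in HT. PSME4, a large nuclear activator, stood at 7.98 and 8.43. PSMF1, a protein that can inhibit the isolated core, stood at 5.82 and 6.58, 1.70-fold higher in HT, and so ran with the subunits rather than against them.

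Chaperones of 20S assembly gave no common direction. PSMG1, part of the complex that starts the alpha ring, stood at 8.15 in SUDHL6 and 8.50 in HT, and PSMG3 at 5.48 and 5.29. PSMG2, the partner of PSMG1, was named only by probe sets shared with CEP76, at 6.61 and 7.15 and at 5.36 and 6.19, both lower in SUDHL6. The probe set that PSMG4 shares with SLC22A23 stood at 3.93 and 3.77, below the dim level in HT. POMP, the maturation factor that completes the core and is no member by symbol, stood at 9.10 and 9.82, 1.66-fold higher in HT.

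Other proteins of the particle and its substrates' route were mostly lower in SUDHL6 as well. Of 12 genes of other proteasome factors, all above the dim level in both lines, 10 were lower in SUDHL6, beside 53.5% of genes above dim, and the median was -0.44, or -0.33 after loess. A difference of at least 1 was reached by 0 of them, beside 12.3%. The lowest differences were those of USP14, a deubiquitinase bound to the regulator (7.35 in SUDHL6 and 8.19 in HT), ECPAS, an adaptor that holds core and regulator together (8.15 and 8.95), and POMP. The ubiquitin receptor gene ADRM1 stood at 6.02 and 6.41. SEM1, a small lid subunit (11.18 and 10.73), and AKIRIN2, which brings proteasomes into the nucleus (a difference of 0.35), were higher in SUDHL6.

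Of 12 measured genes of the ubiquitin and shuttle list, 11 were lower in SUDHL6, beside 53.5% of genes above dim. UBQLN4, among the 11, was dim on both arrays. The median was -0.55, and -0.38 with values raised to the dim level. UFD1, the cofactor with which the segregase VCP extracts ubiquitinated proteins, stood at 8.05 in SUDHL6 and 10.06 in HT, 4.03-fold higher in HT. VCP itself stood at 8.16 and 8.06. Another VCP cofactor gene, NSFL1C, stood at 5.48 and 6.48, a difference of -0.997 that falls just short of the limit, and NPLOC4, the partner of UFD1, at 5.53 and 6.19. The shuttle factor gene DDI1 reached the dim level by a small margin in HT and was at least 1.24-fold higher there. Together 2 of 12 were counted as higher in HT, beside 6.99% of genes above the dim level, and 0 in SUDHL6, beside 5.3%. DDI1 was no longer counted at a 99th percentile dim level, after values were raised to the dim level, or when shared probe sets were included.

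Of 7 known regulators of proteasome genes with a value, 6 were lower in SUDHL6, beside 52.9% of all genes. In the main setting 0 were counted as different, beside 12.3% of genes above dim. NFE2L1, which raises proteasome gene transcription when proteasomes are inhibited, stood at 5.91 in SUDHL6 and 5.97 in HT. DDI2, the protease that activates it, stood at 5.98 and 6.11, and NGLY1, the glycanase that processes it, at 7.81 and 8.38. BACH1, a repressor at antioxidant response elements, stood at 6.02 and 5.02, higher in SUDHL6. That difference, 0.997, was just under 1, and was counted after quantile normalization and after loess. KEAP1 stood at 4.53 and 4.96, and MAFG at 5.06 and 5.23. The median of the 7 was -0.14, with MAFF dim on both arrays.

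**Figure D4:**
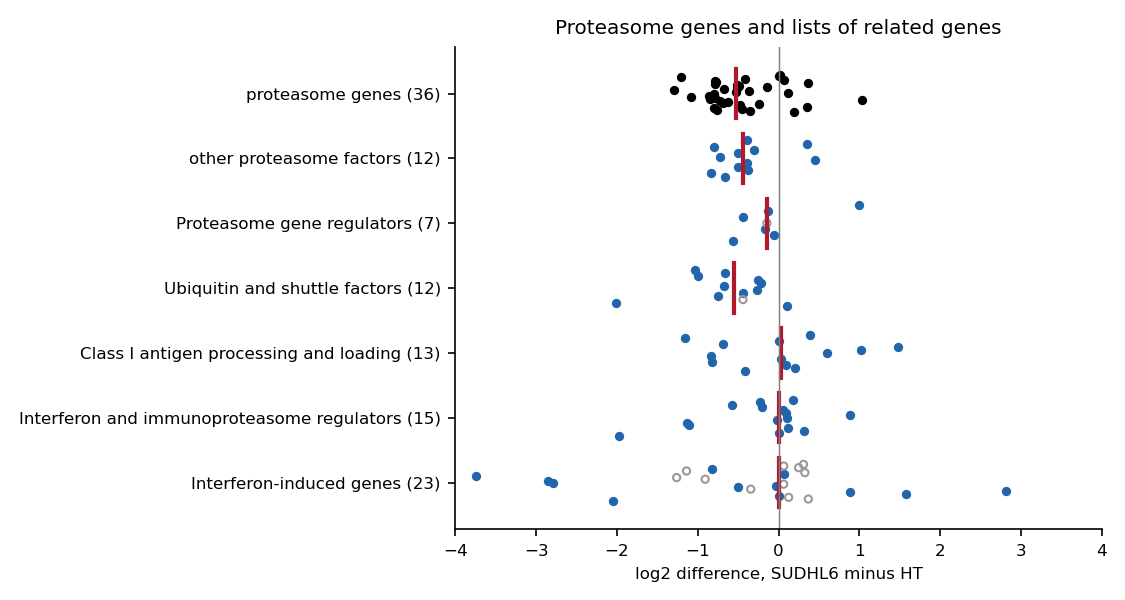
Log2 difference (SUDHL6 minus HT) of each gene with a value in the proteasome group and in 6 lists of related genes, 1 array per line; points are genes, spread vertically only for legibility, open points are under the dim level on both arrays, and red bars are medians. The medians of the proteasome genes (-0.52), the other proteasome factors (-0.44) and the ubiquitin and shuttle factors (-0.55) lie left of 0. Those of the class I (0.02) and interferon lists (0.00) lie at or near 0. With values raised to the dim level, the ubiquitin and shuttle median was -0.38, and those of the interferon lists were -0.21 and -0.30.

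Genes downstream of the immunoproteasome and genes of interferon signalling differed in both directions. In the class I list, 5 of 13 measured genes were lower in SUDHL6 and the median was 0.02, or 0.16 after loess. The trimming enzyme gene ERAP2 (7.06 in SUDHL6 and 5.59 in HT) and HLA-E (6.09 and 5.08) were counted as higher in SUDHL6, and the chaperone gene CALR (8.71 and 9.87) as higher in HT, beside 5.3% and 6.99% of genes above dim. ERAP1, the other trimming enzyme of the endoplasmic reticulum, stood at 6.57 and 7.25, opposite in direction to ERAP2. In the list of regulators, IRF1, an interferon-induced activator of PSMB8, PSMB9 and TAP1, stood near the dim level in both lines. Its difference was 0.09, and its HT value (3.81) lay below that level. IRF8 stood at 7.49 and 7.38. NLRC5, an activator of class I genes that also acts on PSMB9, stood at 4.03 and 3.91, again below the dim level in HT. So near that level, small differences do not show that IRF1 or NLRC5 was equal in both lines. STAT3 (3.92-fold), JAK1 (2.20-fold) and JAK2 (2.15-fold) were counted as higher in HT, 3 of 15 beside 6.99% of genes above dim, and 0 in SUDHL6, beside 5.3%. After quantile normalization or loess IRF2, at 7.91 and 7.02, was counted as higher in SUDHL6. The median was 0.00, and -0.21 with values raised to the dim level.

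Among 23 measured interferon-induced genes, 12 reached the dim level, 4 counted as higher in HT and 2 in SUDHL6, beside 6.99% and 5.3% of genes above dim. The median over the 23, of which 11 were dim on both arrays, was 0.00, and -0.30 with values raised to the dim level. UBE2L6, the conjugating enzyme for the ubiquitin-like protein ISG15, stood at 5.44 in SUDHL6 and 7.49 in HT, 4.15-fold higher in HT. ISG15 itself stood at 5.36 and 5.39. IFIH1 was at least 4.51-fold, IFIT3 at least 1.78-fold and IFIT5 at least 1.75-fold higher in HT. MX2 was at least 4.23-fold and OAS2 at least 1.85-fold higher in SUDHL6. With values raised to the dim level IFIT3, IFIT5 and OAS2 were no longer counted, and with a 99th percentile dim level 2 genes were left in HT. A lower PSMB8 value in SUDHL6 thus stood beside interferon-induced genes that differed in either direction.

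The members with lower values in SUDHL6 came from many places in the genome. The 36 members lie on 16 chromosomes, with 6 on chromosome 17 and 4 each on 1 and 14. After the median of up to 10 nearest genes was subtracted from each member, 30 of 36 came out lower in SUDHL6 and the median was -0.48. Among them were PSMA1 and PSMA2, which were not lower before the subtraction. Genes dim on both arrays were kept among the neighbours, so a shift shared by the expressed neighbours could be hidden. Copies elsewhere in the genome are a limit for this family: 16 of the 36 members have numbered pseudogenes in RefSeq, 27 in all, and the probes were not checked against them. Among the other 20 members, 18 were lower in SUDHL6 and the median was -0.57. Of the 16 with pseudogenes, 10 were lower, and these 16 include PSMD4, PSMA1, PSMA2, PSMA5, PSME2 and PSMG3, which were not. Probe cross-hybridisation as a part of these values was not tested.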

How the data were processed

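Total RNA of 2 untreated cell lines was measured, SUDHL6 and HT, 1 array each. The authors deposited log2 expression values for 22011 probe sets, made with RMA in Affymetrix Expression Console per the submitters' processing notes. Not given in the sources used here were versions, RMA settings and the genome build behind the probe sets. RMA shrinks small differences of dim genes. Groups were taken from the cell line given in the labels.

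Genes were named from GEO's platform annotation, with 14404 of 14432 single-gene probe sets updated by gene number to RefSeq (GRCh38.p14). A gene with several probe sets took the one with the highest mean. The dim level was the 95th percentile of 225 olfactory receptor genes in each line. The log2 fold between the authors' 2 deposited columns was described without a test, since each group had 1 array. The alternatives were quantile and loess (span 0.3) normalization, values raised to the dim level, averaged or shared probe sets, other dim levels and a 1.5-fold limit. Further ones, the subtraction of neighbours and the removal of members with pseudogenes, and the 1.5-fold count under each setting, were chosen after seeing the data. The counting code was checked on simulated data, with changes planted only in genes well above the dim level. That check does not show how often noise alone would be counted in these arrays. Python 3.11.15, pandas 2.3.3 and statsmodels 0.14.6 were used. Promoter windows came from RefSeq.

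The members and lists were chosen with earlier results of these data known. The rule for named genes allowed every member. Of each related list it took the genes with a difference of at least 1, or else those with the largest differences up to 3, with TAP1, TAP2, HLA-DMB, HLA-DOB, HLA-DMA and BRD2 as neighbours of PSMB8 and PSMB9. Other genes were chosen after their values were seen.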

Additional observations from a re-analysis of the deposited data

How the results depend on the processing

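No paired analysis was possible because each line had 1 array. Without replicates, a median was taken as moved when it changed by 0.1 or more. Of the 28 proteasome genes lower in SUDHL6, the number was again 28 under quantile normalization, loess, values raised to the dim level and averaged probe sets. With shared probe sets included it was 31 of 40, and 4 were counted as higher in HT. PSMD12 alone of the 3 genes counted in HT lost its place, under both normalizations. The number higher in SUDHL6, 1, became 0 with values raised to the dim level, where PSMD4 in HT takes that level. Without members that have numbered pseudogenes it was also 0, with 1 higher in HT and 18 of 20 lower in SUDHL6. At 1.5-fold, 17 members were higher in HT, and of all genes 1517 then counted as higher in HT and 1058 in SUDHL6. After loess the median was -0.42 for all members, -0.53 for structural beta, -0.41 for constitutive catalytic beta, -0.67 for 19S non-ATPase, -0.60 for 19S chaperone and -0.36 for activator genes. After quantile normalization the last 3 were -0.68, -0.60 and -0.34. With neighbours subtracted the medians were -0.39 for the alpha ring, -0.63 for constitutive catalytic beta, -0.60 for PSMB8 and PSMB10, -0.23 for ATPases and -0.28 for 19S chaperones. With the shared PSMB9 probe set the immunoproteasome median was -1.30. Raising values to the dim level moved the median of all genes to -0.30, by construction for genes dim in both lines. The precision is limited by 1 array per line, and genes near the dim level, such as PSMD4 in HT, give only bounds.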
